A study of Mus musculus with 6 samples.

Results

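The constitutive proteasome subunit genes were measured in thymus of adult female mice from a pair of F1 crosses. They were chosen by symbol from the platform annotation of the array, as the Psma, Psmc and Psmd genes and Psmb1 to Psmb7, which gave 35 of the 18193 genes with a probe set that names 1 gene. The interferon-inducible subunits Psmb8, Psmb9 and Psmb10 and the activator genes named Psme were left out of this group. The first cross was (AKR/J x FVB/NJ)F1 (the AKR cross, arrays AKR 1, AKR 2 and AKR 3) and the other was (DBA/2J x FVB/NJ)F1 (the DBA cross, arrays DBA 1, DBA 2 and DBA 3). Both carry an FVB/NJ genome from 1 parent, and they differ in whether the other is AKR/J or DBA/2J. No treatment of the mice is named, and the tissue was whole frozen thymus, so each array averages over thymocytes and all other cells of the organ. The study asked how the genotypes differ in their basal thymus expression, and the labels do not say whether each array was 1 animal.

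The proteasome degrades proteins that carry ubiquitin chains. Its core is a barrel of stacked rings, in which outer rings of alpha subunits guard the entrance and inner rings of beta subunits hold the protease sites. A regulatory particle caps the barrel: a ring of ATPases (the Psmc genes) unfolds the substrate, and non-ATPase subunits (most Psmd genes) bind, deubiquitinate and position it. In the thymus the peptides that proteasomes release are loaded on MHC class I molecules and shape the selection of CD8 T cells. The name of the group covers more than finished subunits, since Psmd5, Psmd9 and Psmd10 encode chaperones that assemble the regulatory particle, and Psma8 encodes an alpha subunit of the testis.

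Of the 35 genes, 34 lay above the 40th percentile of their array on at least 3 of 6 arrays and were tested. Psma8 was the exception, with 4.55, 4.43 and 4.60 in the AKR cross and 3.88, 4.05 and 4.36 in the DBA cross. On none of the 6 arrays did Psma8 pass that level, and no fold is given. All values are log2 probe set intensities, a gene is represented by its brightest probe set, and differences are AKR cross minus DBA cross with the standard error (SE). The threshold for a call was an adjusted p of 0.05 in limma, with p-values adjusted by the Benjamini-Hochberg method across the 12852 genes tested.

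Of the 7 inner-ring genes, 4 were called higher in the AKR cross, and of the 7 outer-ring genes none was called in either direction by limma. Of 34 tested proteasome genes, 8 were called higher in the AKR cross (23.5%) and 2 lower (5.88%), against 12.5% and 11.5% of all tested genes (24.0% in both directions together). Among the 5305 tested genes within the brightness range of the proteasome genes, 15.1% were called higher and 15.8% lower (31.0% together). The 3 AKR values and the 3 DBA values did not overlap for 21 of the 34 (61.8%), against 43.9% of all tested genes. The 8 genes were the beta subunits Psmb2, Psmb4, Psmb5 and Psmb6 and the non-ATPase subunits Psmd1, Psmd3, Psmd8 and Psmd11. The 2 lower genes were the ATPase Psmc6 and the non-ATPase Psmd6. All differences were under 1.5-fold, from -0.27 to 0.58, and the median over the 34 genes was 0.02, against 0.03 over all tested genes. After each array was centred on its median, that of the proteasome genes was -0.0024, so the list as a whole had no stable sign. Leaving out AKR 1, AKR 3 or DBA 2 left 3 of the 8 calls in place of 8, and leaving out DBA 3 left 4, with Psmb6, Psmd1 and Psmd3 among them each time. Of the 2 lower calls, 1 was left when AKR 1, AKR 3, DBA 1 or DBA 3 was dropped and 0 when AKR 2 or DBA 2 was dropped. With AKR 3 dropped the lower genes were Psmc6 and Psmd10, since Psmd6 lost its call and Psmd10 gained one. Calls over all genes fell as well, to between 1842 (DBA 2 dropped) and 2518 (DBA 1 dropped), against 3083. The share of all genes called higher was 7.68% without AKR 1, 7.77% without AKR 3, 6.95% without DBA 2 and 7.15% without DBA 3. Against these shares, 3 or 4 of 34 was a smaller excess than that of the main fit. With a variance prior that ignores the level of a gene, 3 of the 34 were higher and 1 lower, against 11.3% of all genes higher. The larger share of higher calls among the proteasome genes was thus not kept in that setting. Over all genes, the share of calls in the direction of the AKR cross was 62.1% after quantile normalization, 46.2% after centring of the arrays and 52.0% on the values as deposited.

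**Figure D1:**
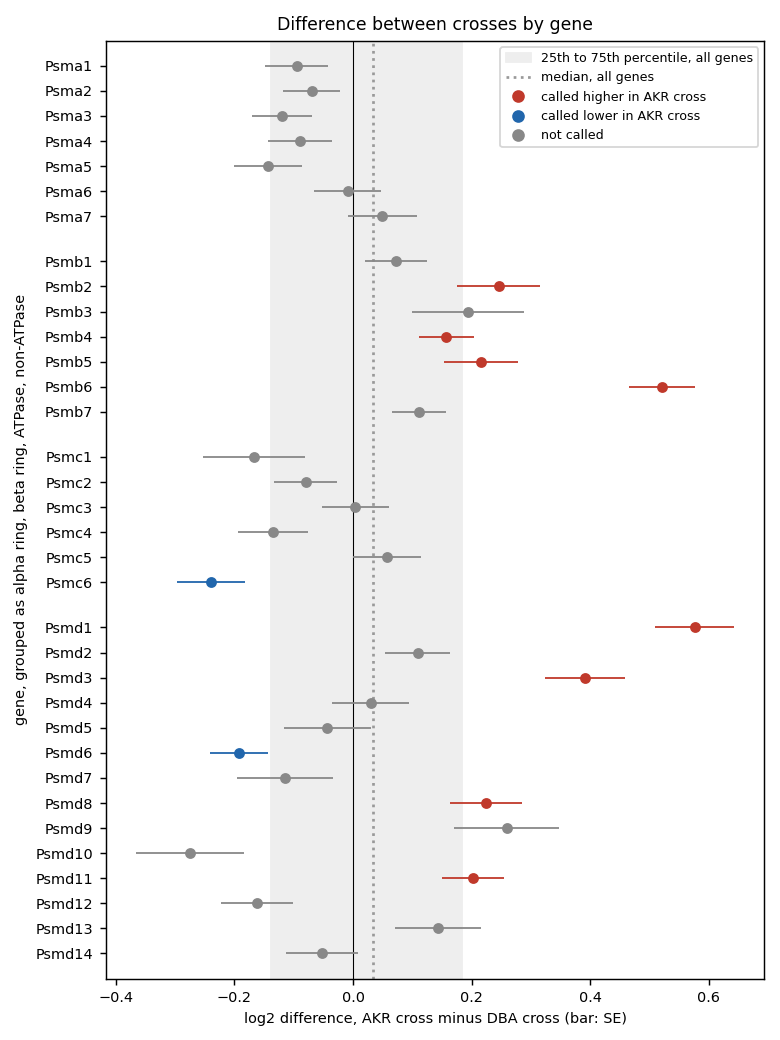
Log2 difference (AKR cross minus DBA cross, x axis) of the 34 tested genes (y axis, grouped by role), with bars for the SE. All 7 beta subunits (Psmb) lie right of 0 and 4 of them are called, while 6 of 7 alpha subunits (Psma) lie left of 0 and none is called. The grey band spans the middle of all tested genes, from -0.14 to 0.18, and the dotted line is their median.

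To set the results beside the DNA in front of the genes, the 250 bases before the start of transcription are given for 5 genes. They are from RefSeq on GRCm38.p6, 5′ to 3′, on the strand of the gene. Psmb6, Psmb5 and Psmd1 were called higher and Psmc6 and Psmd6 lower. The 5 genes are a selection and do not stand for all called genes. Capitals mark matches on either strand to TGACNNNGC (the core of the antioxidant response element), CCAAT (the NF-Y box) and CCGGAA (the core site of ETS factors).
Psmb6 (chr11:70525107-70525356, plus strand): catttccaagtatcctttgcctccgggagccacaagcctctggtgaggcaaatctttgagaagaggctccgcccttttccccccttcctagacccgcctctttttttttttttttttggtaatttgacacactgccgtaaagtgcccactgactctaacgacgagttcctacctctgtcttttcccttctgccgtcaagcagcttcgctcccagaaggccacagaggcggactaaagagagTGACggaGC
Psmb5 (chr14:54617996-54618245, minus strand): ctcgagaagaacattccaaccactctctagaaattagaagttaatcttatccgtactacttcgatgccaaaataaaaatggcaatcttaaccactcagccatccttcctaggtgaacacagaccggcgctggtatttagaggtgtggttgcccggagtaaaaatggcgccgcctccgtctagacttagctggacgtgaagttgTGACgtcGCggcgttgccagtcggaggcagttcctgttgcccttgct
Psmd1 (chr1:86064369-86064618, plus strand): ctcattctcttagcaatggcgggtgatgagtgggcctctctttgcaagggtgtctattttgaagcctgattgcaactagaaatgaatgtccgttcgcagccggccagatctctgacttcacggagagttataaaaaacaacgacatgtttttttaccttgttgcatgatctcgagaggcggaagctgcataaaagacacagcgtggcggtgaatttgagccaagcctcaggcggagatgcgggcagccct
Psmc6 (chr14:45329574-45329823, plus strand): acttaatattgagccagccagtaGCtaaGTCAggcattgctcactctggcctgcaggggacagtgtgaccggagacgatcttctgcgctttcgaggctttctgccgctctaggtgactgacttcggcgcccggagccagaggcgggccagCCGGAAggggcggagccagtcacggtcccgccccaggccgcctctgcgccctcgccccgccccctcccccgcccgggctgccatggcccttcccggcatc
Psmd6 (chr14:14120946-14121195, minus strand): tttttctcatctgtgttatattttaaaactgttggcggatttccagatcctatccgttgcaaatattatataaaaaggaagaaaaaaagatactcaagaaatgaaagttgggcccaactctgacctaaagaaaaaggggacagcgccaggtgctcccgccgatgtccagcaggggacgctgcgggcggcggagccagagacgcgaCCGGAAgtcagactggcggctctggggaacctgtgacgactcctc
Psmb6 and Psmb5 each held 1 antioxidant response element core, whose first base lay 9 and 47 bases before the start. Psmd1 held none of the motifs, Psmc6 held 1 antioxidant response core and 1 ETS core, and Psmd6 held 1 ETS core. No marked matches overlap in these 5 sequences.

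Promoters were found in RefSeq for 28 of the 35 genes (30 promoters). None was found for Psmb2 and Psmd3, which were called higher, or for the beta genes Psmb1 and Psmb7. The counts by call and by role are thus partial. The antioxidant response core was present in 5 of 30 (16.7%), against 10.2% of all 32851 promoters of the same length. By call, it was in 2 of 6 promoters of genes called higher, 1 of 2 called lower and 2 of 22 not called. By role, it was in 2 of 4 beta, 0 of 8 alpha, 1 of 6 ATPase and 2 of 12 non-ATPase promoters. CCAAT was present in 11 of 30 (36.7%), against 33.8% of all promoters. CCGGAA was present in 14 of 30 (46.7%), against 12.0% of all promoters. By role, CCGGAA was found in 5 of 6 ATPase promoters, 7 of 12 non-ATPase promoters, 2 of 8 alpha promoters and 0 of 4 beta promoters. CCAAT was found in 5 of 8 alpha, 1 of 4 beta, 2 of 6 ATPase and 3 of 12 non-ATPase promoters. By call, CCAAT was in 0 of 6 promoters of genes called higher, 0 of 2 called lower and 11 of 22 not called. These counts are small, and no test of them was run. In Psmd4, 2 CCGGAA matches overlap each other. A match describes letters in this window and is not a measured binding site.

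The beta subunits form the inner rings, and Psmb5, Psmb6 and Psmb7 carry the protease activities. All 7 beta genes had a difference above 0, with a median of 0.19. Settings that changed only the filter, variance model, block or probe sets fitted left these differences as they were, so their sign could not turn there. All 7 also stayed above 0 under both normalizations, with averaged probe sets and with each array left out. Over the 16 alternative settings, 1 to 5 of them were called. Psmb6, the caspase-like subunit, had 11.22, 11.12 and 11.18 in the AKR cross and 10.70, 10.67 and 10.59 in the DBA cross. The groups were clearly apart, since the lowest AKR array was above the highest DBA array. The Psmb6 difference was 0.52 ± 0.06 (SE), 1.44-fold, with an adjusted p = 0.000538 (limma), and the call held in all 16 settings.

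Psmb2, a structural beta subunit, had 10.59, 10.48 and 10.52 in the AKR cross and 10.34, 10.35 and 10.16 in the DBA cross. Its groups did not overlap, DBA 3 was the lowest array, and the difference was 0.25 ± 0.07 (adjusted p = 0.0337, limma). Psmb5, the chymotrypsin-like subunit, had 11.34, 11.28 and 11.24 in the AKR cross and 11.14, 11.11 and 10.96 in the DBA cross. DBA 3 was again the lowest array without an overlap of the groups, at a difference of 0.22 ± 0.06 (adjusted p = 0.0348, limma). Psmb4, a structural subunit, had 12.04, 11.93 and 11.97 in the AKR cross and 11.84, 11.80 and 11.82 in the DBA cross. The Psmb4 difference was small, 0.16 ± 0.05 (adjusted p = 0.0375, limma), on tight groups that did not overlap. These 3 calls were near the threshold. Psmb2 and Psmb5 each lost theirs when any 1 of AKR 1, AKR 2, AKR 3, DBA 2 and DBA 3 was dropped, with adjusted p (limma) up to 0.0997 for Psmb2 and up to 0.100 for Psmb5. Psmb4 lost its call when any 1 of AKR 1, AKR 3, DBA 1, DBA 2 and DBA 3 was dropped, with an adjusted p (limma) up to 0.114.

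Psmb7, the trypsin-like subunit, had 11.89, 11.89 and 11.98 in the AKR cross and 11.81, 11.80 and 11.81 in the DBA cross. All 3 AKR arrays were above the DBA arrays, but the difference of 0.11 ± 0.05 was not called (adjusted p = 0.104, limma). Psmb3 differed by 0.19 ± 0.09 with overlapping groups and was not called (adjusted p = 0.165, limma), since DBA 2, at 10.81, reached the AKR range. A dimmer Psmb3 probe set differed by 0.35 ± 0.07 and was called (adjusted p = 0.00805 over probe sets, limma). Psmb1 differed by 0.07 ± 0.05 and was not called.

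The alpha subunits, which form the outer rings and the gate, had no called gene among 7 tested. The 7 differences ran from -0.14 to 0.05, with a median of -0.09, and 6 were below 0. At the unadjusted level Psma3 and Psma5 were under 0.05. Psma6 had 12.01, 11.95 and 11.97 in the AKR cross and 11.96, 11.90 and 12.10 in the DBA cross, and Psma2 had 11.93, 11.81 and 11.92 in the AKR cross and 11.94, 11.95 and 11.98 in the DBA cross. The Psma6 groups overlapped, while the Psma2 groups were apart by only a narrow gap. The largest alpha difference was that of Psma5, at -0.14 ± 0.06 (adjusted p = 0.0998, limma). Psma1 (-0.10), Psma3 (-0.12) and Psma4 (-0.09) lay close to it, and Psma7 stood at 0.05. The sign of Psma6 turned after quantile normalization, to 0.02, and those of Psma1 and Psma3 turned with the mean of all their probe sets, to 0.02 and 0.15.

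**Figure D2:**
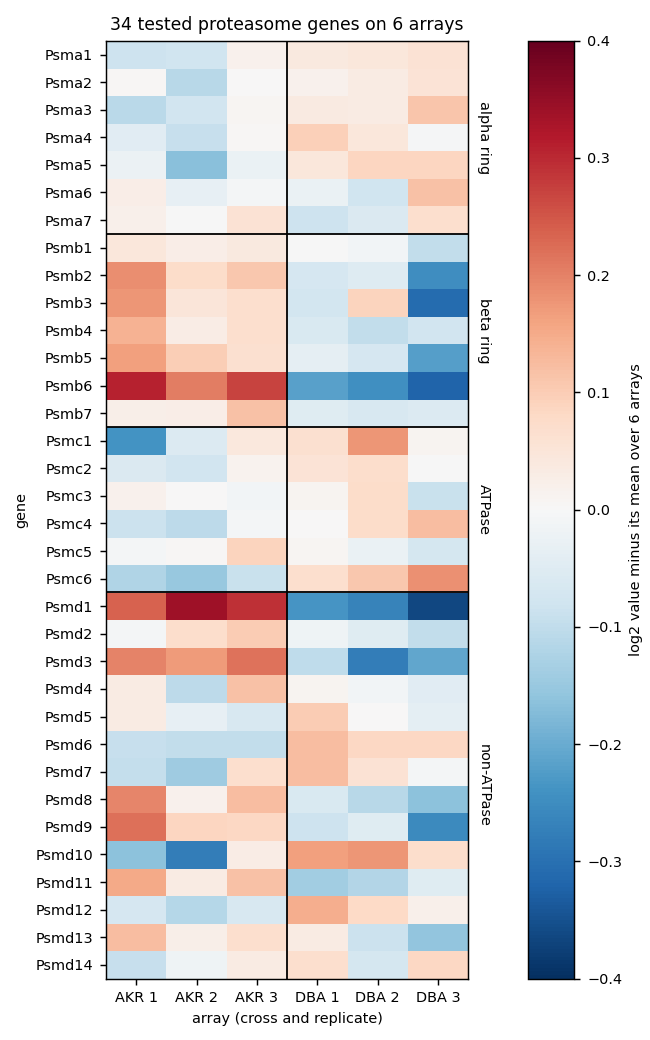
Values of the 34 tested genes (rows, grouped by role) on the 6 arrays (columns, AKR cross left and DBA cross right), each as the log2 value minus its mean over the 6 arrays. Psmb6, Psmd1 and Psmd3 are red on all 3 AKR arrays and blue on all 3 DBA arrays, and Psmc6 and Psmd6 show the opposite.

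The rings were also set side by side array by array. The mean log2 value of the 7 beta genes minus that of the 7 alpha genes was -0.03, -0.05 and -0.11 in the AKR cross and -0.29, -0.28 and -0.46 in the DBA cross. These are contrasts between probe sets of different genes, so only their change between arrays can be read, and the AKR arrays were higher than every DBA array. The alpha mean itself, centred over the 6 arrays, was -0.03, -0.08 and 0.01 in the AKR cross and 0.02, 0.01 and 0.07 in the DBA cross. The beta mean was 0.15, 0.07 and 0.10 in the AKR cross and -0.07, -0.06 and -0.19 in the DBA cross. The array that was lowest for beta genes, DBA 3, was highest for alpha genes. Deviations from the cross means over the same 6 arrays had a median correlation of 0.67 among the 21 pairs of beta genes and of 0.44 among the 21 pairs of alpha genes, against -0.04 over the 49 pairs of 1 beta and 1 alpha gene. Other pairs across roles came close to the value within the alpha ring, with 0.43 over the 98 pairs of a beta and a non-ATPase gene and 0.34 over the 42 pairs of an alpha and an ATPase gene. These correlations describe shared arrays and are given without a test.

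**Figure D3:**
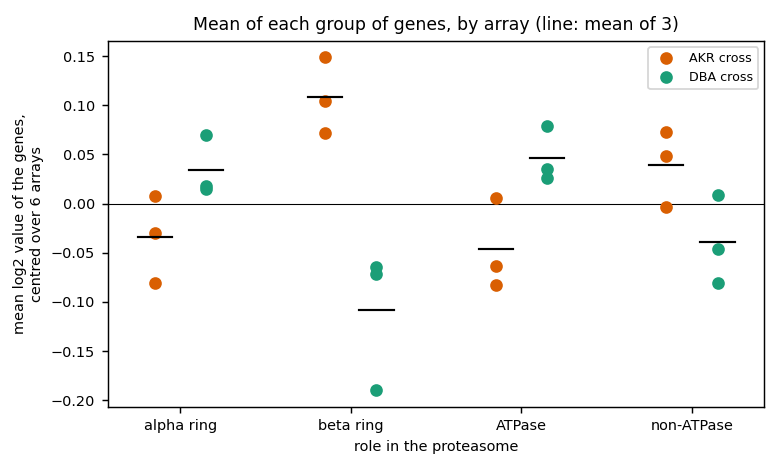
Mean log2 value of the tested genes of each role (x axis), centred over the 6 arrays (y axis), with 1 point per array and a line for the mean of 3 arrays. The beta ring is the group in which the AKR arrays (0.07 to 0.15) lie farthest from the DBA arrays (-0.19 to -0.06).

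The ATPase ring, which unfolds substrates, had 1 called gene among 6. Psmc6 had 10.37, 10.34 and 10.40 in the AKR cross and 10.56, 10.60 and 10.67 in the DBA cross. All 3 AKR arrays were below all 3 DBA arrays, and the difference was -0.24 ± 0.06 (adjusted p = 0.0172, limma), which was 1.18-fold higher in the DBA cross. The other 2 Psmc6 probe sets, at -0.46 and -0.50, were called in the same direction. The Psmc6 call was lost when AKR 2, DBA 2 or DBA 3 was dropped, with an adjusted p (limma) of at most 0.0556.

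Psmc3 had 11.08, 11.06 and 11.05 in the AKR cross and 11.07, 11.14 and 10.97 in the DBA cross, and Psmc2 had 10.91, 10.89 and 10.98 in the AKR cross and 11.02, 11.04 and 10.97 in the DBA cross. Both sets of groups overlapped, and neither gene was called. Psmc1 (-0.17), Psmc4 (-0.13) and Psmc5 (0.06) were not called either. The probe sets of Psmc4 disagreed: the brighter one differed by -0.13 ± 0.06 and the dimmer one by 0.32 ± 0.07, which was called (adjusted p = 0.0108 over probe sets, limma), so the direction of Psmc4 is not settled. The sign of Psmc3 turned to -0.02 after centring of the arrays, and those of Psmc1 and Psmc4 turned with the mean of all their probe sets, to 0.03 and 0.09.

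Among the 14 Psmd genes, 4 were higher, 1 was lower and 9 were not called. Psmd1, a large scaffold subunit that contacts the ATPase ring, had 9.90, 10.01 and 9.96 in the AKR cross and 9.43, 9.40 and 9.31 in the DBA cross. Psmd1 had the largest difference of all 34 tested genes, at 0.58 ± 0.07 (1.49-fold, adjusted p = 0.000780, limma), with a wide gap between the groups. Psmd3, a subunit of the lid, had 9.97, 9.94 and 9.99 in the AKR cross and 9.67, 9.49 and 9.56 in the DBA cross. The Psmd3 groups were apart as well, at 0.39 ± 0.07 (1.31-fold, adjusted p = 0.00427, limma). Both calls held in all 16 settings.

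Psmd8 and Psmd11, which also belong to the lid, were higher by less. Psmd8 had 11.32, 11.14 and 11.25 in the AKR cross and 11.06, 11.01 and 10.96 in the DBA cross, a difference of 0.22 ± 0.06 (adjusted p = 0.0278, limma) without overlap. Psmd11 had 11.69, 11.57 and 11.65 in the AKR cross and 11.40, 11.42 and 11.49 in the DBA cross, a difference of 0.20 ± 0.05 (adjusted p = 0.0231, limma) without overlap. Of the 5 tested probe sets of Psmd11, 3 were called higher, with differences of 0.20, 0.41 and 0.49, and all 5 were above 0. The Psmd8 call was lost when AKR 1, AKR 3, DBA 2 or DBA 3 was dropped (adjusted p up to 0.0874, limma), and that of Psmd11 when AKR 1, AKR 3, DBA 1 or DBA 2 was dropped (adjusted p up to 0.0743, limma).

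Psmd6, another lid subunit, went the other way, with 10.88, 10.87 and 10.87 in the AKR cross and 11.10, 11.06 and 11.05 in the DBA cross. The groups were tight and apart, at -0.19 ± 0.05 (adjusted p = 0.0211, limma). A dimmer Psmd6 probe set stood at 0.24 ± 0.10 without a call, and the mean of the probe sets differed by 0.02, so the direction rests on the brighter one. The Psmd6 call was also lost when any 1 of AKR 1, AKR 2, AKR 3, DBA 1 and DBA 2 was dropped (adjusted p up to 0.0620, limma).

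Psmd14, the deubiquitinase of the lid, had 11.07, 11.14 and 11.19 in the AKR cross and 11.23, 11.09 and 11.24 in the DBA cross, and the overlapping groups gave no call. Psmd4, a ubiquitin receptor, differed by 0.03 ± 0.06, and Psmd2, the scaffold that docks ubiquitin-binding shuttles, by 0.11 ± 0.05, both without a call. Psmd7 (-0.11), Psmd12 (-0.16) and Psmd13 (0.14) were not called. The assembly chaperones Psmd9 (0.26 ± 0.09, adjusted p = 0.0601, limma) and Psmd10 (-0.27 ± 0.09, adjusted p = 0.0562, limma) lay just above the threshold in opposite directions. Psmd10 passed with AKR 3 dropped, at -0.36 (adjusted p = 0.0280, limma), and under 6 further settings. Psmd9 passed under 4 settings (the stricter filter, quantile normalization, the replicate block and the fit on 1 probe set per gene). It stood at 0.047 when its probe sets were averaged, among them a dim one at -0.22 that failed the filter. Psmd5, the remaining chaperone, differed by -0.04 ± 0.07.

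Several probe sets allow a check within 1 gene. Of 73 probe sets of the 35 genes, 63 were tested, and 14 of these were called higher and 4 lower, against 12.2% and 15.0% of all tested probe sets (27.2% together). Of the 17 genes with several tested probe sets, 0 had calls in both directions, and 9 had differences on both sides of 0. Psma1 had the widest range, from -0.28 to 0.41 over 3 probe sets, none of them called by limma. Psma3 stood at -0.12 ± 0.05 on the brighter probe set and 0.43 ± 0.10 on the dimmer one, which was called higher (adjusted p = 0.0126 over probe sets, limma). For Psmb4, the dimmer probe set stood at -0.04 ± 0.08 without a call, against 0.16 on the brighter one. Psma7 had 1 dimmer probe set called higher (0.20 ± 0.05, adjusted p = 0.0216 over probe sets, limma). Psmb2, Psmb5, Psmb6, Psmd1, Psmd3 and Psmd8 had 1 tested probe set each, so their differences rest on it alone.

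**Figure D4:**
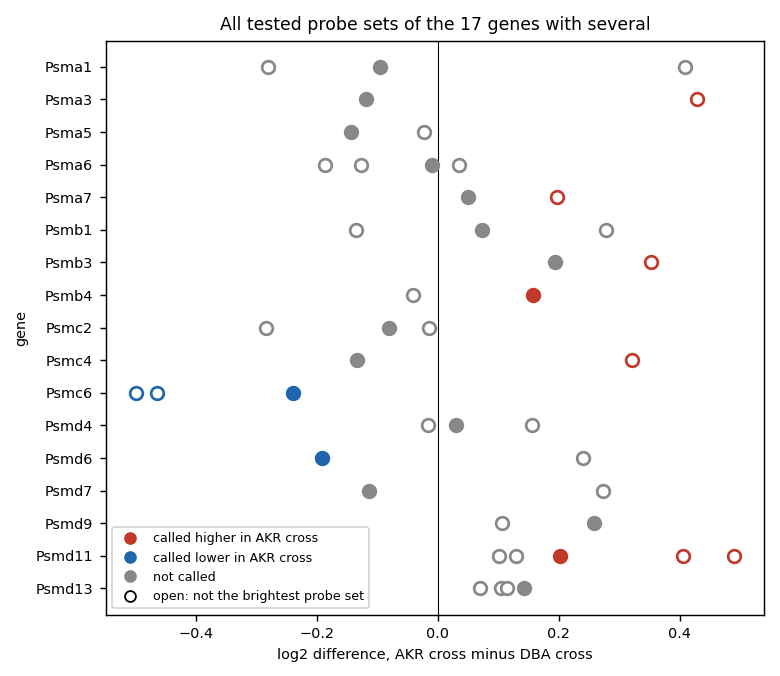
Log2 difference (AKR cross minus DBA cross, x axis) of every tested probe set of the 17 genes (y axis) with several, with filled points for the brightest. Psmc6 and Psmd11 keep 1 side of 0 on all their probe sets, while Psma3, Psmc4 and Psmd6 lie on both sides.

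The rest of the pathway was read from lists of genes outside the group. Of 42 listed genes tested, 8 were higher in the AKR cross (19.0%) and 2 lower (4.76%), against 12.5% and 11.5% of all tested genes. Both directions together made 23.8%, near the 24.0% of all tested genes, and the median difference was 0.02. Psme3, which encodes the nuclear activator PA28 gamma, had 9.14, 9.15 and 9.23 in the AKR cross and 8.65, 8.69 and 8.59 in the DBA cross. The groups were far apart at 0.53 ± 0.07 (1.45-fold, adjusted p = 0.00136, limma), and another Psme3 probe set differed by 0.997 ± 0.08 and was called. Psmg4 (0.57 ± 0.10, adjusted p = 0.00466, limma) and Psmg3 (0.44 ± 0.10, adjusted p = 0.0157, limma), whose products pair as a chaperone of alpha ring assembly, were higher in the AKR cross. Psmg3 lost its call when DBA 2 or DBA 3 was dropped (adjusted p up to 0.0521, limma). Psmf1, an inhibitor of the core, was higher by 0.34 ± 0.07 on its brightest probe set, with another at -0.26 that was not called, and its call was lost with the mean of its probe sets (0.14). Psmg1, which pairs with Psmg2 in an earlier step of ring assembly, differed by 0.16 ± 0.06 and was not called. Dimmer probe sets of other listed genes were called as well. Lower ones were those of Vcp (-1.13), Psme4 (-0.98), Rad23b (-0.71 and -0.30), Ecpas (-0.63, -0.50 and -0.44), Txnl1 (-0.39) and Zfand5 (-0.31). Higher ones were those of Txnl1 (0.45) and Usp14 (0.30). None of these genes was called on its brightest probe set.

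The subunits that replace the catalytic beta subunits in immune cells and in the thymic cortex were set beside them. Psmb9 takes the place of Psmb6 in the immunoproteasome, and was higher in the AKR cross by 0.34 ± 0.05 (adjusted p = 0.00321, limma), against 0.52 for Psmb6. Psmb8 takes the place of Psmb5, and was higher by 0.19 ± 0.05 (adjusted p = 0.0215, limma), against 0.22 for Psmb5. Psmb10 takes the place of Psmb7, and neither was called, at 0.08 and 0.11. Psmb11, the cortical epithelial form that takes the place of Psmb5, had 9.13, 9.14 and 9.28 in the AKR cross and 9.29, 9.29 and 9.34 in the DBA cross. Psmb11 was not called (-0.13 ± 0.07, adjusted p = 0.226, limma), and the difference between it and Psmb5 was not tested. The Psmb8 call was lost when AKR 1, AKR 3, DBA 2 or DBA 3 was dropped, and the mean of both its probe sets differed by -0.02.

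Of 9 genes of ubiquitin receptors and proteasome-bound deubiquitinases, 0 were higher and 1, Ubqln2, was lower (-0.33 ± 0.07, adjusted p = 0.0115, limma). Ubqln2 encodes a shuttle that carries ubiquitinated proteins, and it lost its call when DBA 2 was dropped and with the mean of its probe sets (-0.09). At the p97 segregase, which extracts proteins from complexes, Nploc4 (0.27 ± 0.08) was higher and Ufd1 (-0.27 ± 0.08) lower, although they encode partners in 1 adaptor. The calls of Nploc4 (adjusted p = 0.0453, limma) and Ufd1 (adjusted p = 0.0448, limma) were each lost in 5 of the 6 cases with 1 array left out. Nploc4 kept its call when AKR 1 was the array dropped, and Ufd1 when it was AKR 3. Nfe2l1 encodes the factor that raises proteasome genes when proteasome activity is low, and it was not called, at -0.17 ± 0.08 (adjusted p = 0.133, limma). Nfya, a subunit of the factor that binds CCAAT, was higher by 0.37 ± 0.09 (adjusted p = 0.0213, limma), a call that did not hold when AKR 1 or AKR 2 was dropped (adjusted p up to 0.0651, limma).

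**Figure D5:**
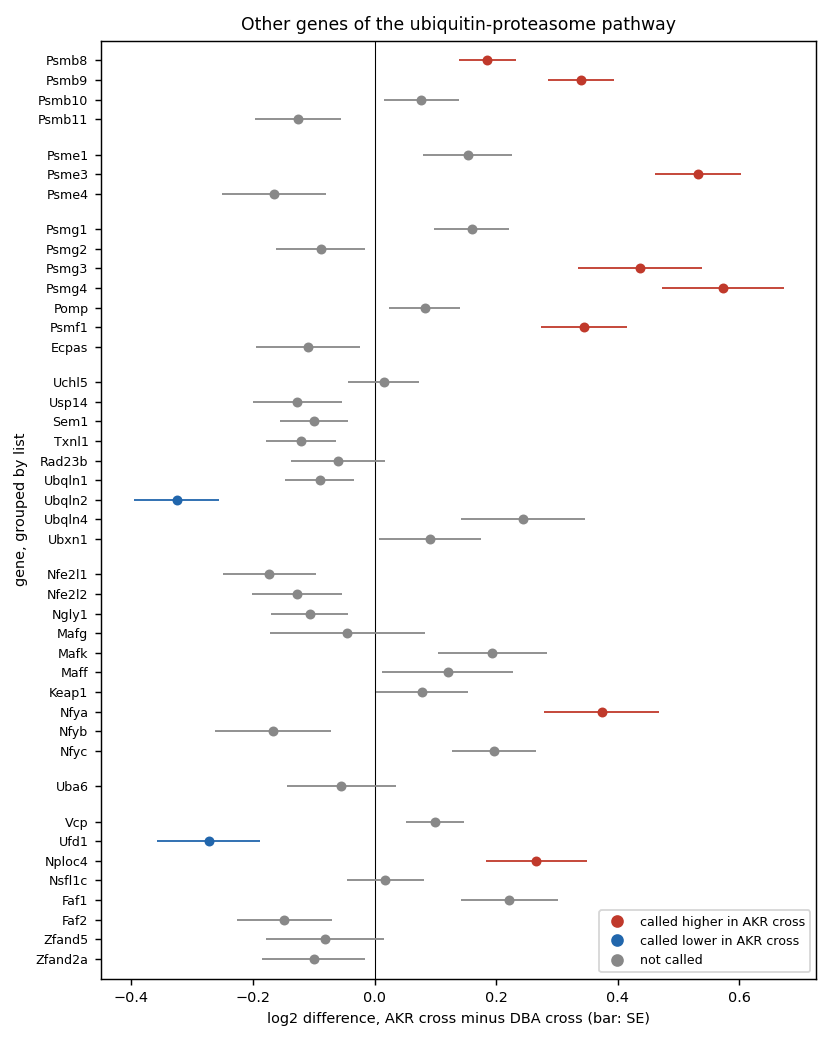
Log2 difference (AKR cross minus DBA cross, x axis) of the 42 tested pathway genes outside the group (y axis, by list), with bars for the SE. Psmg4 (0.57) and Psme3 (0.53) have the largest differences, and the calls in the other direction are Ubqln2 (-0.33) and Ufd1 (-0.27).

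Other multi-subunit complexes of the cytosol were counted as a comparison. The cytosolic chaperonin had 1 of 8 genes higher (Cct7) and 2 lower (Cct6a and Cct2), with a median of 0.06. The COP9 signalosome, a relative of the proteasome lid, had 1 of 9 higher (Cops7b) and 1 lower (Cops2), with a median of 0.01. The translation factor eIF3 had 3 of 11 higher and 4 lower, with the smallest adjusted p (limma) for Eif3a (-0.52), Eif3b (0.40) and Eif3e (-0.24), with a median of 0.05. Of all tested genes, 12.5% were called higher and 11.5% lower, so calls in both directions within a list are no mark of a complex. They were not limited to the proteasome in these arrays, and no test of the complexes against each other was run.

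The tissue and the arrays had the following marker values. All 11 thymocyte markers were above the filter, and 1, Cd3e, was called higher. Of 14 proliferation markers, 8 were called higher, among them Plk1 (0.55), Ccna2 (0.41) and Rrm2 (0.29), and 0 lower, with mean log2 levels of 10.58 to 10.79 in the AKR cross and 10.43 to 10.46 in the DBA cross. Of 8 B cell markers, 5 were higher, among them Cd79a and Cd22, and 1 was lower. Their mean levels were 7.42 to 7.55 in the AKR cross and 7.09 to 7.21 in the DBA cross. The higher calls include Cr2 and Pax5, which were above the filter level on only 4 of 6 arrays, mostly those of the AKR cross. No reading is drawn from the calls of Cr2 and Pax5. Of 9 medullary epithelial markers, 1 was higher (Cldn4) and 5 lower, among them Csn2 and Epcam, with mean levels of 7.99 to 8.01 in the AKR cross and 8.09 to 8.18 in the DBA cross. Markers of cortical epithelium (Ctsl, Foxn1 and Dll4) and of dendritic cells and macrophages (Timd4, Flt3 and Mertk) had 3 of 9 higher each and 0 lower. Of 8 neutrophil markers 3 were lower (S100a8, S100a9 and Ltf), of 3 red cell markers 1 was higher (Hba-a2), and of 6 fat markers 0 were called by limma and 0 had an unadjusted p under 0.05. Hba-a2 had 6.45, 6.34 and 6.17 in the AKR cross and 4.77, 5.14 and 5.21 in the DBA cross. It passed the filter only through the AKR arrays, so no reading is drawn from its call. In whole tissue, fewer cells of a type and less RNA per cell cannot be told apart, and the part of these cell types in the proteasome values was not tested. DBA 1 stood apart in the 9 skeletal muscle markers, none of which was called by limma, whose mean was 5.47 to 7.50 on the AKR arrays, against 10.19 on DBA 1 and 5.94 and 7.03 on the other DBA arrays. AKR 3 was the lowest array for the muscle markers, at 5.47, and for the fat markers. Over the 7 fat markers measured, which include the untested Lep, the AKR 3 mean was 7.14. The other AKR arrays had 8.06 and 8.25, and the DBA arrays 7.71 to 8.37. With AKR 3 dropped, 3 proteasome genes were higher and 2 were lower. With DBA 1 dropped, 6 proteasome genes were higher and 1 was lower, and all 7 beta genes stayed above 0.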

How the data were processed

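Thymus RNA, extracted with Trizol and biotin-labelled, was hybridised to single-channel Affymetrix arrays, per the labels' protocols. The deposited table holds log2 values that the authors made for 45101 probe sets on each of 6 arrays. Per the submitters' processing notes the tools were MAS5 and RMA, without saying which gave the deposited values. Values ran from 2.47 to 14.4, with array medians from 5.92 to 5.95, and arrays correlated at 0.994 to 0.996 within a cross and 0.984 to 0.989 between crosses. Such normalized summaries can distort the differences of dim probe sets, and how far they do so here was not tested. The number of arrays limits the precision, and no detection calls were used.

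The 64 control probe sets were left out. Probe sets that exceeded the 40th percentile of an array in 3 or more of the 6 were tested (27385). The model was limma 3.58.1 (lmFit, then eBayes with a trend; R 4.3.3), and p-values were adjusted by Benjamini-Hochberg over 12852 genes, or over the probe sets where so stated. Since the labels do not give separate animals, the p-values speak only of the scatter among these 6 samples, possibly a technical one. Symbols came from the platform annotation, and all 35 members matched RefSeq (GRCm38.p6) by Entrez identifier, with 0 symbols changed. The fit was tested on simulated data. Figures used matplotlib 3.10.9.

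Members and lists were chosen with earlier results of these data known. The text accounts for every member. Per-array values were given for the 6 called members with the largest differences in each direction and, among the 2 brightest genes of each role, for those not called. They were also given for further called members, Psme3 and Psmb11. Called pathway genes were named, and Psmb10, Psmb11, Psmg1 and Nfe2l1 were added with their values known. Alternatives covered the filter, normalization, variance model, replicate block, choice of probe set and each array left out. The average by gene took in all its probe sets, also dim ones that failed the filter. A fit on 1 probe set per gene was chosen after seeing the data.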

Additional observations from a re-analysis of the deposited data

How the results depend on the processing

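Over 16 alternatives, Psmb6 (0.49 to 0.55), Psmd1 (0.54 to 0.63) and Psmd3 (0.35 to 0.44) kept their calls in all. The counts of members were 8 higher and 2 lower. With eBayes without trend they were 3 and 1, where 11.3% of all genes were higher, and after centring of the arrays 4 were lower. With 1 array left out, 3 to 6 were higher and 0 to 2 lower. Of the other pathway genes, 8 were higher and 2 lower. The lower count was 1 without a filter, 1 after quantile normalization, 1 with eBayes without trend and 5 when probe sets were averaged by gene. With 1 array left out, 5 to 8 were higher and 0 to 2 lower. The median of the members was 0.02, and 0.058 when probe sets were averaged by gene, beyond the spread of 0.028 between arrays. It ran from 0.0015 to 0.034 with 1 array left out. Averages by gene took in dim probe sets that failed the filter, such as the one through which Psmc1 changed sign. When probe sets were averaged by gene 6 members not called, or called by their brightest probe set, changed sign: Psma1 (0.018), Psma3 (0.15), Psmc1 (0.027), Psmc4 (0.094), Psmd6 (0.024) and Psmd7 (0.060). After quantile normalization Psma6 (0.024) and Psmd5 (0.0013) did, and after centring Psmc3 (-0.015) did. With 1 array left out Psma6 ran from -0.051 to 0.047, Psmc3 from -0.040 to 0.042 and Psmd4 from -0.022 to 0.090. Over all genes, calls numbered 3083, against 1961 without AKR 2, 1842 without DBA 2 and 1947 without DBA 3. The cause of these changes was not tested.

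With the replicate number as a block, 9 members were higher and 3 lower, and 11 pathway genes were higher and 2 lower. Over all genes 4193 were called with the block, against 3083 without it. Same-numbered arrays deviated together with correlations of 0.39, 0.07 and 0.37. Arrays of unlike number were not set beside them, so whether the numbers mark a pairing or a shared batch was not tested. The main fit did not use the numbers. A fit on 1 probe set per gene, chosen after seeing the data, called 9 members higher and 3 lower.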

Other observations

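The members lie on many chromosomes of the GRCm38.p6 annotation. Chromosome 11 holds 6 of the 35, of which Psmb6, Psmd3 and Psmd11 were called higher in the AKR cross and Psmb3, Psmc5 and Psmd12 were not called. Chromosome 14 holds 3, of which Psmb5 was higher and Psmc6 and Psmd6 were lower. Psmb5 and Psmb11 are neighbours there with 0 protein-coding genes between them, at differences of 0.22 and -0.13. Chromosome 2 holds 5 members, Psma7, Psmb7, Psmc3, Psmd5 and Psmd14, of which 0 were called by limma and Psmb7 alone had an unadjusted p under 0.05 (0.0360). Over all tested genes 12.5% were called higher and 11.5% lower, and the share of called genes on each chromosome was not counted. Whether position and difference are related was not tested.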
